A study of Mus musculus with 17 samples.

Results

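The genes described here are 10 whose transcripts were higher in the hippocampus of mice without functional CBP than in control littermates, namely Frem3, Adi1, Spata1, Nudt17, Ttf2, Mpp7, Ldhd, C1qtnf12, Col6a4 and BC067074. They are 10 of the 55471 genes in the table of counts, of which 39260 had at least 1 count. They were chosen by their normalized counts in these same libraries, which were higher in CBP-ifKOs than in controls, so the difference between genotypes is given as a description and without a test. Each gene had at least 16 reads in every library, and all 10 had an adjusted p in each of the comparisons below, after the filter of DESeq2 on low mean counts.

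There were 17 RNA libraries, each from the hippocampus of 1 male C57BL/6 animal between 3 and 6 months old. CBP-ifKO mice (9 libraries) carry floxed Crebbp and the creERT2 recombinase under the Camk2a promoter, and all mice received tamoxifen. The recombinase acts in forebrain excitatory neurons, which then make a truncated CBP without acetyltransferase activity, whereas other cells of the hippocampus keep intact CBP. Controls (8 libraries) were littermates that, by the study's methods, lacked the recombinase, although their labels name Camk2a_creERT2 as well. The Sal groups had saline alone. The PTZ0 groups first had the kindling protocol and had saline on the final day. In this protocol, repeated doses of the convulsant pentylenetetrazole (PTZ) are given to sensitise the animals. By the study, controls came to have seizures under it, whereas no CBP-ifKO reached the stage of progressive seizures. The PTZ45 groups had the same protocol and 45 mg/kg PTZ on the final day. Tissue was taken 45 min after the last injection. Each group had 3 libraries, except Control PTZ45 with 2.

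CBP, encoded by Crebbp, is a lysine acetyltransferase and transcriptional coactivator. It acetylates histones at enhancers and promoters and is recruited by CREB and other activators, so its loss is best known for lowering the expression of neuronal genes. The 10 genes belong to different families. Frem3, Col6a4 and C1qtnf12 encode matrix or secreted proteins, Adi1, Ldhd and Nudt17 encode metabolic enzymes, Ttf2 and Mpp7 encode a transcription termination factor and a junctional scaffold, and Spata1 and BC067074 are less well characterised.

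Promoters are shown for Frem3, Ttf2, Spata1 and Nudt17, whose levels separated the genotypes in every library and which have an entry in the RefSeq table used (build GRCm38.p6). Each window runs from 250 bases before to 50 bases after a RefSeq start site, on the strand of the gene. The cAMP response element to which CREB binds, TGACGTCA, and its shorter form TGACG, which it contains, were searched on both strands. Capitals mark TGACG or its complement.

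Frem3, chr8:80610789-80611088, plus strand: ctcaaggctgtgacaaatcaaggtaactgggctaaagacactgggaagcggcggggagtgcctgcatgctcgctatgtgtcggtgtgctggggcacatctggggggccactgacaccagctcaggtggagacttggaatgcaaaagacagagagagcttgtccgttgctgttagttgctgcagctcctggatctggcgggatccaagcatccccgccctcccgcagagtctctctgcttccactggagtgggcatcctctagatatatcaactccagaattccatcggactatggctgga

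Ttf2, chr3:100969614-100969913, minus strand: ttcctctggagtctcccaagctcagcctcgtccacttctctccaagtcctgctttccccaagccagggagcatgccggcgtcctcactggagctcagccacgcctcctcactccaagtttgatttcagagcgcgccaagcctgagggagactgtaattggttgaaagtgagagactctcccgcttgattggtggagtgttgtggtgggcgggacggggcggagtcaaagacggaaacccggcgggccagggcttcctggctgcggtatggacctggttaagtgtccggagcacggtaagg

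Spata1, chr3:146499704-146500003, minus strand: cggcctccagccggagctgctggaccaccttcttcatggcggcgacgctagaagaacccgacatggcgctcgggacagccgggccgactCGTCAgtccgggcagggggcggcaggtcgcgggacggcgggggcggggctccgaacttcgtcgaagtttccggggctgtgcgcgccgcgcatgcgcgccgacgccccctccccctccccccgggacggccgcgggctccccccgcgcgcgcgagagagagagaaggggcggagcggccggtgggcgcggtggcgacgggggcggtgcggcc

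Nudt17, chr3:96708511-96708810, minus strand: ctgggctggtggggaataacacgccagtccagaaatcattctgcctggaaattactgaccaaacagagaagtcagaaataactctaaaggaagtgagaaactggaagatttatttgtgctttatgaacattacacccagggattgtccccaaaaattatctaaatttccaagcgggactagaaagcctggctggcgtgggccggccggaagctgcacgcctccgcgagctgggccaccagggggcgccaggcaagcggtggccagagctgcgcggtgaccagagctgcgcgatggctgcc

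The full element TGACGTCA was in none of the 7 windows that the table holds for 6 of the genes (these 4, Ldhd and Col6a4, with a pair of start sites for Spata1), and it was in 1.79% of the 32851 windows of the same length in the table. TGACG was in both windows of Spata1, which overlap and share the same single site, and in no other of the 7. Over the table it was in 20.8% of all windows. The promoter of Spata1 was also rich in G and C, at 77.7% of its bases, against a median of 52.7% over the table. That of Nudt17 held 54.7% and that of Frem3 56.3%. Adi1, Mpp7, C1qtnf12 and BC067074 have no window here.

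The targeted gene followed the labels. Crebbp had 2169 ± 201 normalized counts (mean ± SD, n = 8) in controls and 1214 ± 95 (n = 9) in CBP-ifKOs, where normalized counts are reads divided by the DESeq2 size factor of the library. Esr1, part of whose reads can come from the ERT2 portion of the recombinase, had 41.0 to 77.8 normalized counts in controls and 703 to 941 in CBP-ifKOs. Libraries held 5831992 to 18735643 counts. All 8 choroid plexus markers were detected in every library, and their summed level was 460 to 1183 in 12 libraries and 10935 to 44704 in the other 5, of which 2 were controls and 3 CBP-ifKOs. The summed levels of 4 CA1 pyramidal cell markers were 3827 to 4464 in controls and 2578 to 3480 in CBP-ifKOs, those of 6 interneuron markers 6372 to 6737 and 5690 to 6367, and those of 2 oligodendrocyte precursor markers 1233 to 1402 and 953 to 1189, none of which overlapped. The other 10 of 13 marker lists overlapped between genotypes, among them excitatory neurons (26581 to 34911 in controls and 30771 to 39905 in CBP-ifKOs), dentate granule cells (2168 to 3082 and 2265 to 2944) and ependymal cells (126 to 204 and 144 to 204). The overlap was small for astrocytes (20173 to 21937 and 17270 to 21858, medians 21660 and 18650), and fibroblast and meninges markers had 879 to 1449 and 409 to 1196 (medians 1154 and 798). Every marker of these lists was detected in every library. In bulk tissue, fewer cells of a type and less RNA per cell cannot be told apart, and the part of these shifts in the levels of the 10 genes was not tested.

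The plot of levels in each library shows the 10 genes side by side. For 5 of them, Frem3, Adi1, Spata1, Nudt17 and Ttf2, every CBP-ifKO library lay above every control library. For the other 5 the genotypes overlapped. Among all 18682 genes with an adjusted p between genotypes, every CBP-ifKO library lay above every control library for 0.83%, and 7.76% were called higher in CBP-ifKOs. These shares stand only as the background, because the same contrast chose the 10 genes.

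**Figure D1:**
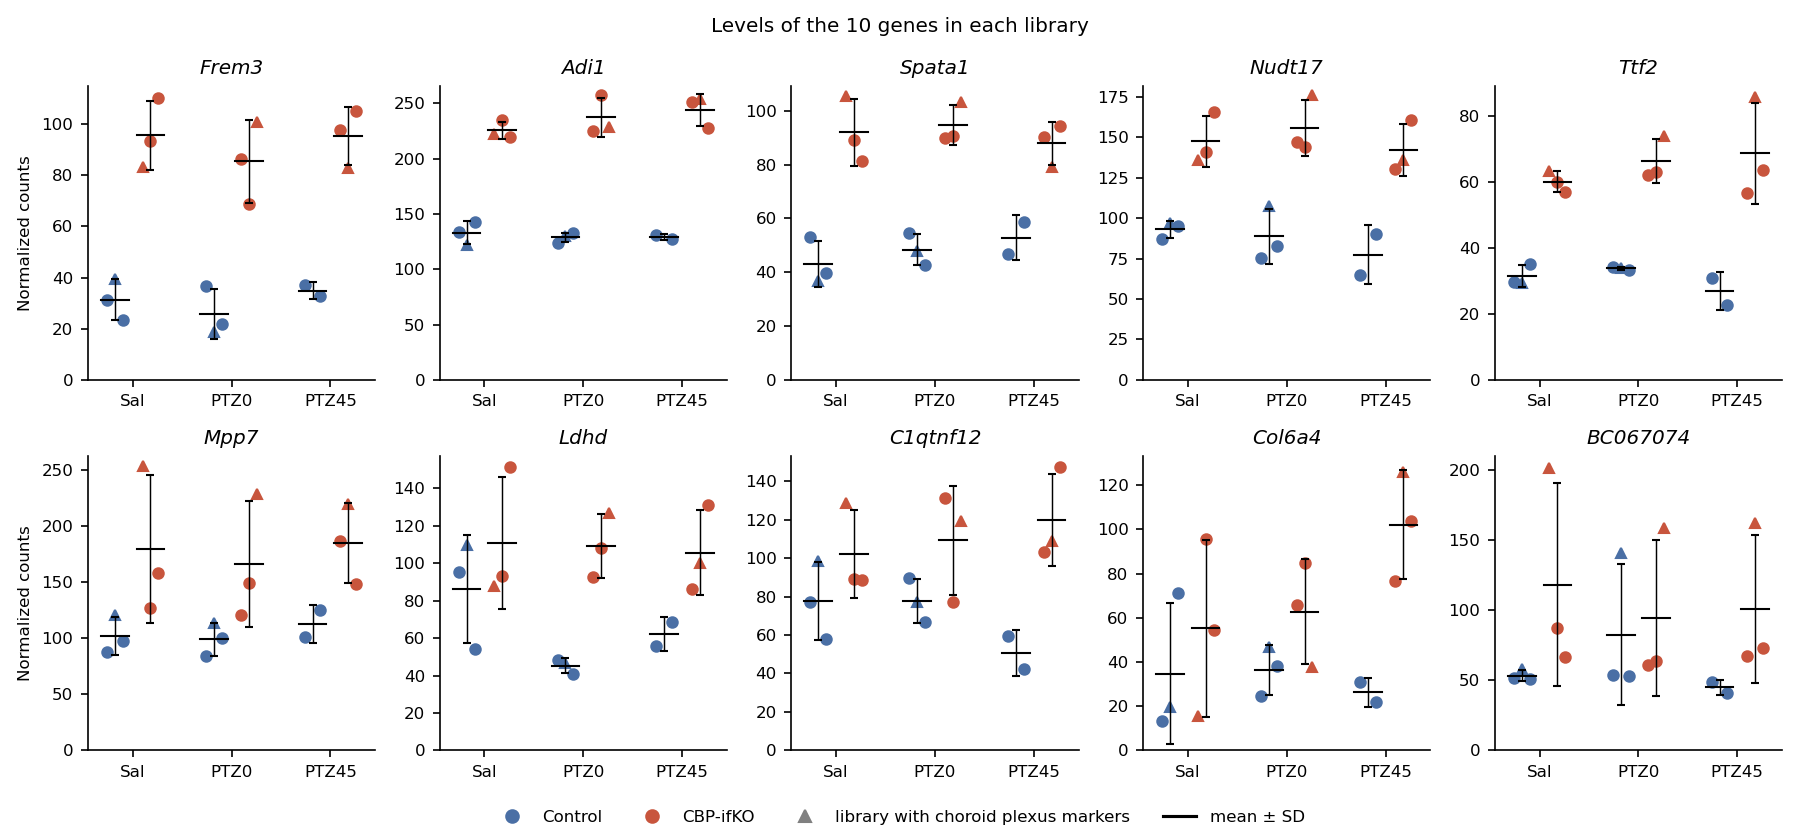
Normalized counts (y axis, from 0) of each of the 10 genes in the 17 libraries, by treatment (x axis) and genotype (colour), with the mean and SD of each group as a line and bar; triangles mark the 5 libraries with a summed choroid plexus marker level over 10000. The genotypes stand fully apart in the upper row and overlap in the lower row, where BC067074 reached 141 normalized counts in 1 control library.

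Frem3, which encodes an extracellular matrix protein of the FRAS and FREM family, showed the largest fitted ratio of the 10 over all 17 libraries. It lies at chr8:80611080-80695356 on the plus strand. Its normalized counts were 31.2, 39.4 and 23.5 in Control Sal, 36.9, 18.74 and 21.9 in Control PTZ0, and 37.1 and 32.6 in Control PTZ45. CBP-ifKO libraries held 83.3, 93.4 and 110.1 in Sal, 86.4, 68.7 and 101 in PTZ0, and 97.8, 83.0 and 105 in PTZ45. The highest control was thus well under the lowest CBP-ifKO library. The fitted log2 fold change was 1.60 (SE 0.15, n = 17), a ratio of 3.03, which ranked 7 among the 1449 genes called higher in CBP-ifKOs. Ratios of group means were 3.05 in Sal, 3.30 in PTZ0 and 2.73 in PTZ45.

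Col6a4 encodes a chain of collagen VI, a matrix protein that forms beaded filaments, and lies at chr9:105989454-106096783 on the minus strand. Its replicates were widely scattered. Control libraries held 13.2, 19.7 and 71.4 normalized counts in Sal, 24.6, 46.9 and 38.1 in PTZ0, and 31.0 and 21.7 in PTZ45. CBP-ifKO libraries held 15.4, 95.5 and 54.7 in Sal, 65.7, 85.0 and 37.8 in PTZ0, and 76.8, 126 and 104 in PTZ45. The Sal groups overlapped almost entirely, whereas the PTZ45 groups did not overlap. The coefficient of variation was 56.3% over the controls and 46.6% over the CBP-ifKOs, while counting error alone would give 18.8% and 13%. The fitted log2 fold change was 1.05 (SE 0.40).

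C1qtnf12 encodes adipolin, a secreted protein of the C1q and TNF related family, and lies at chr4:155962318-155966629 on the plus strand. Controls held 77.1, 98.5 and 57.9 normalized counts in Sal, 89.5, 77.3 and 66.7 in PTZ0, and 59.3 and 42.4 in PTZ45. CBP-ifKOs held 129, 89.2 and 88.7 in Sal, 131, 77.3 and 119 in PTZ0, and 103, 109 and 147 in PTZ45. The genotypes overlapped in Sal and in PTZ0 and were apart in PTZ45, where the ratio of means was 2.36 against 1.31 in Sal and 1.40 in PTZ0. Its log2 fold change over all libraries was 0.66 (SE 0.15), the smallest of the 10.

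Adi1 encodes acireductone dioxygenase 1, an enzyme of the methionine salvage pathway, and lies at chr12:28675231-28682175 on the plus strand. It was the steadiest of the 10. Normalized counts in controls were 134, 122 and 143 in Sal, 124, 130.0 and 132 in PTZ0, and 131 and 127 in PTZ45. In CBP-ifKOs they were 222, 234 and 219 in Sal, 225, 258 and 229 in PTZ0, and 251, 254 and 228 in PTZ45. The coefficient of variation was 5.01% in controls and 6.24% in CBP-ifKOs, no more than the 8.69% and 6.65% that counting error would give. Its log2 fold change of 0.84 had the smallest SE of the 10, 0.07.

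Ldhd encodes the mitochondrial D-lactate dehydrogenase and lies at chr8:111623785-111630374 on the minus strand. Its normalized counts were 95.1, 109.6 and 54.2 in Control Sal, 48.3, 46.9 and 40.9 in Control PTZ0, and 55.7 and 68.4 in Control PTZ45. CBP-ifKO libraries held 87.8, 93.4 and 151 in Sal, 92.5, 108 and 127 in PTZ0, and 86.2, 99.96 and 131 in PTZ45. The genotypes overlapped in Sal alone, where a pair of control libraries reached the range of the CBP-ifKOs. The ratio of means was 1.28 in Sal, 2.41 in PTZ0 and 1.70 in PTZ45, and the log2 fold change was 0.80 (SE 0.16). Of the 5328 exonic bases of Ldhd, 2246 (42.2%) are shared with Znrf1 on the opposite strand. Since the use of strand in the counting is not stated, reads there cannot be told apart. Znrf1, a ubiquitin ligase gene, had a log2 fold change of -0.05 (SE 0.06) between genotypes.

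Nudt17 encodes a hydrolase of the Nudix family, whose members cleave nucleoside diphosphates linked to other groups, and lies at chr3:96706067-96708562 on the minus strand. Control Sal libraries held 87.3, 97.3 and 94.9 normalized counts, Control PTZ0 75.5, 108 and 82.8, and Control PTZ45 64.6 and 90.2. CBP-ifKO libraries held 136, 141 and 166 in Sal, 147, 144 and 176 in PTZ0, and 130.4, 136 and 160.4 in PTZ45. Every group of CBP-ifKOs lay above every control library. Between genotypes the log2 fold change was 0.79 (SE 0.10), and the ratio of means ran from 1.58 in Sal to 1.84 in PTZ45.

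Ttf2 encodes a SNF2 family ATPase that releases RNA polymerase II from its template, and lies at chr3:100938860-100969663 on the minus strand. Controls held 29.6, 29.5 and 35.3 normalized counts in Sal, 34.2, 34.0 and 33.3 in PTZ0, and 31.0 and 22.8 in PTZ45. CBP-ifKOs held 63.4, 60.2 and 56.9 in Sal, 62.1, 63.0 and 74.1 in PTZ0, and 56.8, 86.0 and 63.7 in PTZ45. The ratio of means was 1.91 in Sal, 1.96 in PTZ0 and 2.56 in PTZ45, where the mean of the controls rests on 2 libraries. The log2 fold change was 1.06 (SE 0.14).

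Spata1, a gene known from the testis, lies at chr3:146457196-146499753 on the minus strand. Its normalized counts in controls were 53.0, 36.9 and 39.8 in Sal, 54.4, 48.0 and 42.8 in PTZ0, and 46.9 and 58.7 in PTZ45. CBP-ifKOs held 106, 89.2 and 81.3 in Sal, 90.1, 90.7 and 103 in PTZ0, and 90.4, 79.0 and 94.3 in PTZ45. The groups stayed apart in each treatment. Over all libraries the log2 fold change was 0.95 (SE 0.12), and the ratio of means was 2.13 in Sal, 1.96 in PTZ0 and 1.67 in PTZ45. Spata1 shares 169 of its 4123 exonic bases with Ctbs on the opposite strand, a gene whose log2 fold change was 0.13 (SE 0.07).

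Mpp7 encodes a membrane-associated guanylate kinase that organises cell junctions and polarity, and lies at chr18:7347959-7626866 on the minus strand. Controls held 88.0, 121 and 97.6 normalized counts in Sal, 84.3, 114 and 99.98 in PTZ0, and 101 and 125 in PTZ45. CBP-ifKOs held 254, 127 and 158 in Sal, 121, 149 and 229 in PTZ0, and 187, 219.9 and 149 in PTZ45. The genotypes were apart within each treatment and overlapped by a single CBP-ifKO library when all were pooled. The log2 fold change was 0.78 (SE 0.14).

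BC067074, at chr13:113293159-113379711 on the plus strand, had single libraries far from their replicates. Controls held 51.4, 57.9 and 50.6 normalized counts in Sal, 53.5, 141 and 53.3 in PTZ0, and 48.6 and 41.3 in PTZ45. CBP-ifKOs held 201, 87.2 and 66.5 in Sal, 60.9, 64.0 and 158 in PTZ0, and 67.3, 162 and 73.1 in PTZ45. In 4 of the 6 groups a single library thus stood far above the others. The log2 fold change was 0.82 (SE 0.33).

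The 4 highest libraries of BC067074 were all among the 5 with high levels of markers of the choroid plexus, the tissue in the ventricles that makes cerebrospinal fluid. The 3 CBP-ifKO libraries with summed marker levels of 44704, 33179 and 30545 held 201, 158 and 162 normalized counts of BC067074, and 254, 229 and 219.9 of Mpp7, the highest values of both genes. Of the 2 such control libraries, that with 24681 held 141 of BC067074 and 114 of Mpp7, and that with 10935 held 57.9 and 121. In the 12 libraries with low levels of these markers, BC067074 had 41.3 to 53.5 normalized counts in controls and 60.9 to 87.2 in CBP-ifKOs, and no longer overlapped. There its log2 fold change was 0.46 (SE 0.16), and that of Mpp7 was 0.60 (SE 0.12), with 84.3 to 124.9 in controls and 120.5 to 187 in CBP-ifKOs. The log2 fold changes of the other 8 genes in these 12 libraries lay between 0.69 (C1qtnf12) and 1.61 (Frem3). In them 6 of the 10 genes did not overlap between genotypes, against 1.79% of all genes tested. Since these 12 libraries were among those that chose the genes, this too is a description.

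**Figure D2:**
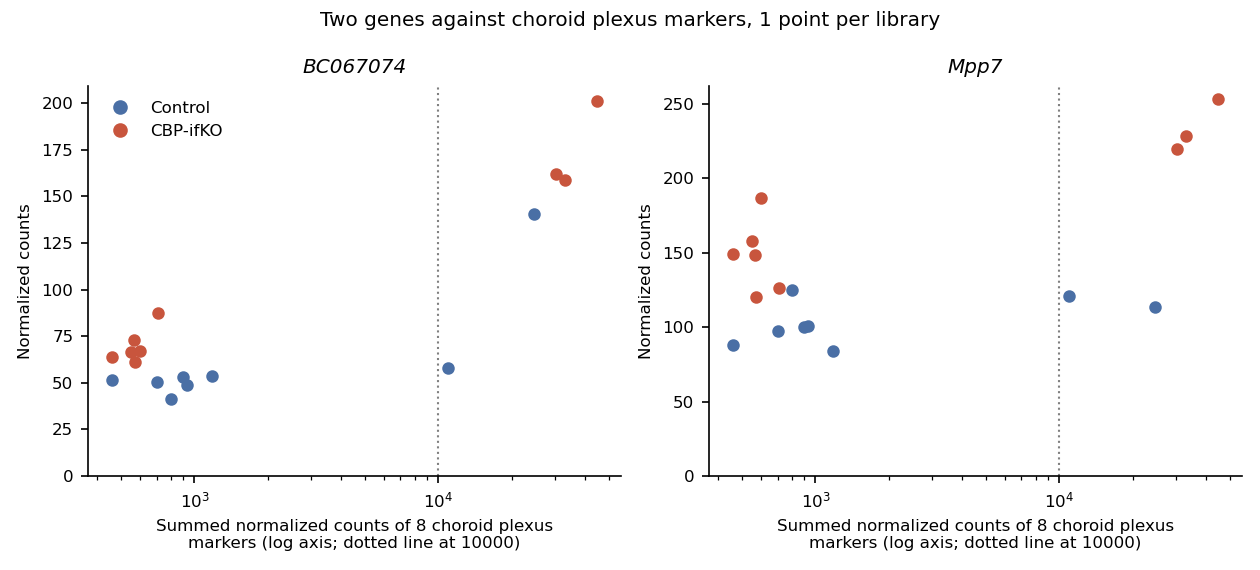
Normalized counts of BC067074 and Mpp7 (y axis, from 0) against the summed normalized counts of 8 choroid plexus markers (x axis, log scale), 1 point per library coloured by genotype. The 3 CBP-ifKO libraries to the right of the dotted line at 10000 hold the highest counts of both genes, and the remaining CBP-ifKO libraries lie at 60.9 to 87.2 for BC067074 and 120.5 to 187 for Mpp7.

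Genotype and sequencing lane could not be separated over the whole series. By the lane numbers in the library labels, Control Sal and Control PTZ0 were read in lane 3, Control PTZ45 and CBP-ifKO Sal in lane 4, and CBP-ifKO PTZ0 and PTZ45 in lane 5. Lane 4 therefore holds both genotypes, with 2 control and 3 CBP-ifKO libraries that also differ in treatment. Within it the mean of all 10 genes was higher in CBP-ifKOs and 9 did not overlap, Col6a4 being the exception, against 16.2% of all genes tested. These libraries were among those that chose the genes, so the values in lane 4 are a description and no independent test. The ratio of means in lane 4 ran from 1.59 for Mpp7 through 1.74 for Spata1, 1.75 for Adi1, 1.79 for Ldhd, 1.91 for Nudt17, 2.01 for C1qtnf12, 2.09 for Col6a4, 2.24 for Ttf2 and 2.63 for BC067074 to 2.74 for Frem3. The ratio of BC067074 was 1.71 without CBP-ifKO Sal replicate 1, which held the most choroid plexus markers, and that of Col6a4 was 1.33 without CBP-ifKO Sal replicate 2.

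**Figure D3:**
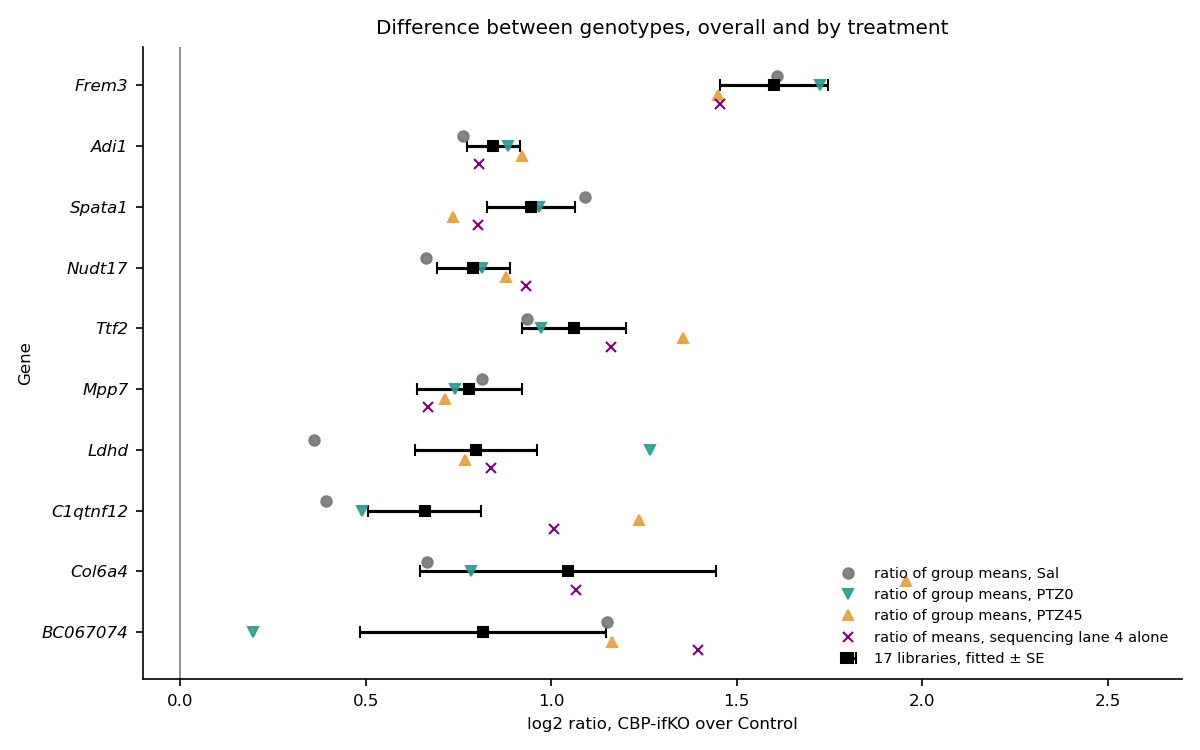
Difference between genotypes for each gene as a log2 ratio (x axis), with the fitted value over 17 libraries ± SE as a square and bar, and the ratio of group means within each treatment and within lane 4 as other symbols. All symbols lie above 0, and the widest spread between treatments is that of Col6a4 and BC067074.

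Levels per kilobase of exon can be set beside each other across genes. In controls they ran from 69.1 normalized counts per kilobase for Adi1, 52.0 for C1qtnf12 and 39.1 for Nudt17 down through 12.2 for Ldhd, 11.5 for Spata1, 7.24 for BC067074 and 5.15 for Mpp7 to 4.73 for Frem3, 4.07 for Ttf2 and 3.91 for Col6a4. The top 3 thus stood well above the rest, whereas Ldhd and Spata1, and Frem3, Ttf2 and Col6a4, did not differ beyond the spread of their libraries. In CBP-ifKOs the same 3 led, with 125 for Adi1, 80.8 for C1qtnf12 and 66.3 for Nudt17. Frem3 had 14.4, BC067074 12.2, Mpp7 8.77, Col6a4 8.61 and Ttf2 8.49. The libraries of BC067074 spread across the range of Frem3, and its mean was 8.13 in the CBP-ifKO libraries with low choroid plexus markers. The value for Mpp7 rests on 20164 exonic bases in the deposited table, while its longest transcript in GENCODE has 4981. For Ttf2 these lengths are 7672 and 4544, whereas both are 6384 for Frem3. The order of these genes therefore depends on the length used. All 10 were modest transcripts, with a median of 86.3 normalized counts against 237 over the 15836 genes with a mean of at least 20. The GC content of their longest transcripts ran from 40.1% to 59.0%, around the 48.4% of those genes.

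Whether the kindling protocol or the last PTZ dose moved these genes is a question that the choice of members did not touch. In none of the 6 comparisons of treatments within a genotype was any of the 10 genes called by the Wald test of DESeq2 (adjusted p under 0.05), and the quasi-likelihood test of edgeR called none either. PTZ45 against Sal called 1.17% of all genes tested in controls and 0.294% in CBP-ifKOs, and PTZ45 against PTZ0 called 1.25% and 0.0872%. PTZ0 against Sal called 0.00843% in controls and 0.0112% in CBP-ifKOs. Before adjustment, at p under 0.05, DESeq2 had 0 of the 10 genes for PTZ45 against Sal in controls, 2 for PTZ0 against Sal and 1 for PTZ45 against PTZ0, and edgeR had 1, 1 and 3. In CBP-ifKOs, in the same order, DESeq2 had 0, 0 and 1, and edgeR 1, 0 and 1. The comparisons share control groups, and only PTZ0 against Sal in controls and PTZ45 against PTZ0 in CBP-ifKOs were read within a lane.

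Adi1 was the gene for which a response was bounded most tightly. Its log2 fold change for PTZ45 against Sal was -0.05 in controls (95% interval -0.45 to 0.36) and 0.12 in CBP-ifKOs (-0.17 to 0.41). For Frem3 these values were 0.17 (-0.63 to 0.96) and -0.01 (-0.46 to 0.43), and for Nudt17 -0.28 (-0.78 to 0.23) and -0.06 (-0.43 to 0.31). For Ttf2 they were -0.22 (-1.05 to 0.60) and 0.19 (-0.34 to 0.72), for Spata1 0.27 (-0.40 to 0.94) and -0.08 (-0.53 to 0.37), and for Mpp7 0.15 (-0.32 to 0.62) and 0.02 (-0.43 to 0.46). The remaining 4 genes had wider intervals in controls than Adi1 or Mpp7. C1qtnf12 had -0.60 in controls (-1.21 to 0.01) and 0.20 in CBP-ifKOs (-0.25 to 0.65), Ldhd had -0.47 (-1.08 to 0.14) and -0.09 (-0.58 to 0.40), and BC067074 had -0.24 (-0.87 to 0.40) and -0.24 (-1.48 to 1.00004). The sign for BC067074 in CBP-ifKOs depended on single libraries. Its value was 0.42 (SE 0.36) without CBP-ifKO Sal replicate 1 and -0.76 (SE 0.64) without CBP-ifKO PTZ45 replicate 2. Col6a4 was bounded least, with -0.40 (-2.26 to 1.45) and 0.92 (-0.46 to 2.29). Its direction in controls depended on Control Sal replicate 3, which held 71.4 normalized counts. The other Control Sal libraries held 13.2 and 19.7, below both Control PTZ45 libraries (31.0 and 21.7). By edgeR, C1qtnf12 in controls and Col6a4 in CBP-ifKOs had an unadjusted p of 0.029 and 0.044 (adjusted 0.31 and 0.72). The libraries leave responses of any size within these intervals possible. The median over the 10 genes was -0.23 in controls and 0.00 in CBP-ifKOs, beside 0.01 and 0.00 over all genes tested.

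The genes with an unadjusted p under 0.05 by DESeq2 in a comparison of treatments were Ldhd, BC067074, C1qtnf12 and Col6a4. Ldhd was lower in Control PTZ0 than in Control Sal, with 45.4 ± 3.89 against 86.3 ± 28.7 normalized counts (SD, n = 3 each). The log2 fold change was -0.92 (SE 0.27) and the adjusted p of DESeq2 was 0.9998 (unadjusted 0.00073), and the 3 PTZ0 libraries lay below all 3 Sal libraries. BC067074 had a log2 fold change of 0.62 (SE 0.32) for Control PTZ0 against Control Sal, with an adjusted p of 0.9998 by DESeq2 (unadjusted 0.0497), which was 0.01 (SE 0.30) without Control PTZ0 replicate 2, the control library with the most choroid plexus markers. For Control PTZ45 against Control PTZ0 its value was -0.87 (SE 0.62), and -0.25 (SE 0.38) without that library. C1qtnf12 had 50.8 ± 11.9 normalized counts in Control PTZ45 (n = 2) and 77.8 ± 11.5 in Control PTZ0 (n = 3), which gave -0.61 on the log2 scale (SE 0.30) and an adjusted p of 0.56 by DESeq2. Col6a4 had 102 ± 24.6 normalized counts in CBP-ifKO PTZ45 and 62.9 ± 23.7 in CBP-ifKO PTZ0 (n = 3 each), and the log2 fold change was 0.71 (SE 0.28) with an adjusted p of 0.99995 by DESeq2. None of these passed the correction over all genes.

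**Figure D4:**
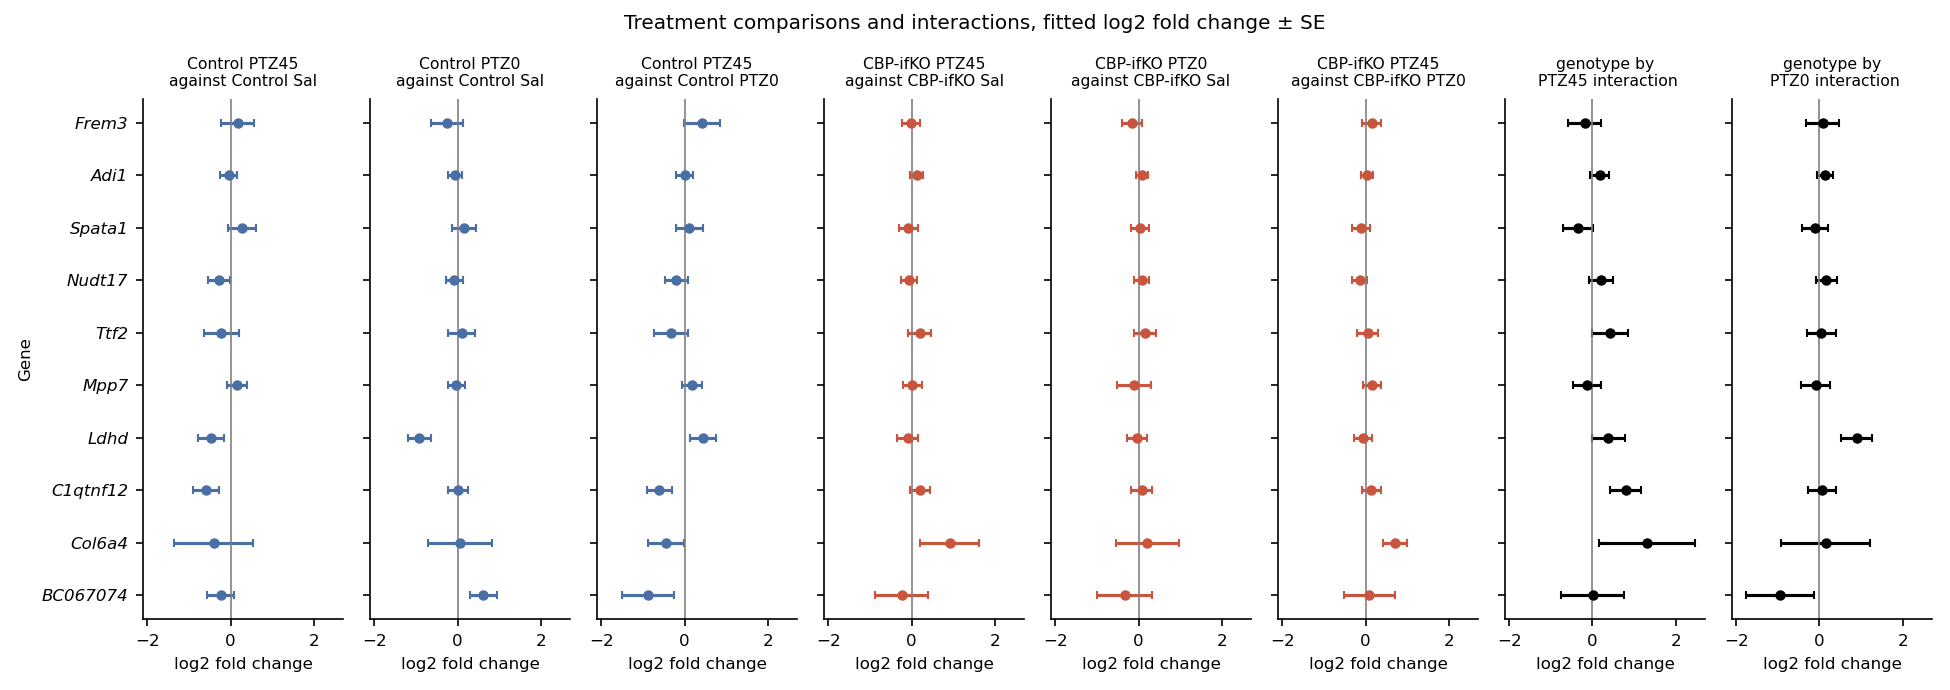
Fitted log2 fold change ± SE (x axis) of the 10 genes in 6 comparisons of treatments within a genotype and in 2 interactions of genotype and treatment. Most values lie within 1 SE of 0 or close to it, and the lowest of Ldhd is -0.92 for Control PTZ0 against Control Sal.

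The difference between genotypes was also compared between treatments. No gene of the 10 was called in the interaction of genotype with PTZ45 (0.329% of all genes called) or with PTZ0 (0% of all genes called) by DESeq2 or edgeR, and each interaction had 1 of the 10 at an unadjusted p under 0.05 by either tool. With PTZ45 this was C1qtnf12, with an interaction of 0.80 on the log2 scale (SE 0.37, adjusted p of DESeq2 0.99998). With PTZ0 it was Ldhd, with 0.89 (SE 0.37, adjusted p of DESeq2 0.99999). The wider ratio of Col6a4 in PTZ45 gave an interaction of 1.31 with an SE of 1.16. For Adi1 the interactions were 0.17 (95% interval -0.26 to 0.60) with PTZ45 and 0.14 (-0.24 to 0.52) with PTZ0. For none of these genes was the ratio between genotypes thus called different between treatments. What size of difference these libraries could detect was not tested.

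Most genes next to the 10 were not called between genotypes. Within 500 kb lay 339 genes, of which 148 had an adjusted p between genotypes. DESeq2 called 6 of these higher and 14 lower in CBP-ifKOs, together 13.5% against 19.3% of all genes tested (7.76% higher and 11.5% lower). Their median log2 fold change was 0.02, beside 0.01 over all genes. No gene was called within 500 kb of Frem3, Adi1, Ttf2, Ldhd or Mpp7 by DESeq2 or edgeR, although 8 of the 41 tested there by DESeq2 had an unadjusted p under 0.05. In lane 4 alone, 19 of the 20 called neighbours kept their direction (Ankrd34a did not) and 1, Atp2c1, was called.

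Of the 20 nearest protein-coding genes, 17 had an adjusted p, and 1 was called in each direction. Smarca5, a chromatin remodelling ATPase gene 3.15 kb from Frem3, had 762 normalized counts in controls and 720.1 in CBP-ifKOs (log2 fold change -0.09, SE 0.06). Trim45, 1.94 kb from Ttf2, had a log2 fold change of -0.04 (SE 0.09), and Trappc12, 8.45 kb from Adi1, of 0.01 (SE 0.04). Rnaseh1 on the other side of Adi1 stood at -0.06 (SE 0.09). Gng5, which starts 54 bases from Spata1 on the opposite strand and encodes a G protein gamma subunit, had 53.5 and 49.7 normalized counts (log2 fold change -0.06, SE 0.13). The promoter window printed for Spata1 also covers the start of Gng5. Wdr59 and Zfp1 beside Ldhd had log2 fold changes of 0.09 (SE 0.05) and -0.10 (SE 0.06), Armc4 and Wac beside Mpp7 of 0.17 (SE 0.24) and 0.10 (SE 0.04), and Snx18 beside BC067074 of -0.11 (SE 0.05). None of the genes in this paragraph passed the test, whereas the genes they flank stood between 0.78 and 1.60 on the same scale.

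Next to Nudt17 both an overlapping and a flanking gene were called. Pias3, which overlaps it by 4 exonic bases on the opposite strand and encodes a SUMO ligase, rose from 169 normalized counts in controls to 198 in CBP-ifKOs (log2 fold change 0.24, SE 0.08, adjusted p 0.023 by DESeq2). Polr3c, a subunit of RNA polymerase III whose gene lies 2.93 kb away, rose from 163 to 193 (0.24, SE 0.07, adjusted p 0.0081). Ankrd35 on the other side had a log2 fold change of 0.11 (SE 0.09). Both changes were smaller than the 0.79 of Nudt17. The call of Pias3 was lost without Control Sal replicate 1 (adjusted p 0.065), CBP-ifKO Sal replicate 2 (0.051), CBP-ifKO PTZ0 replicate 1 (0.058) or Control PTZ45 replicate 2 (0.071), and that of Polr3c was kept without any single library. Farther off, Acp6 rose by 0.37 at 450.2 kb, and Rnf115, Ankrd34a and Gm20628 fell by 0.12, 0.31 and 0.48.

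Near Spata1, Ssx2ip at 17.1 kb fell from 1562 to 1357 normalized counts (log2 fold change -0.21, SE 0.04, adjusted p 1.9e-05 by DESeq2), and Prkacb and Ttll7 fell by 0.13 each. Around C1qtnf12, Acap3 at 55.1 kb fell by 0.37, Sdf4 by 0.09 and Noc2l by 0.17, while Cfap74 rose by 0.28 and Gm16023 by 0.34. The flanking Ube2j2 and B3galt6 had log2 fold changes of 0.09 (SE 0.08) and -0.05 (SE 0.13). Around Col6a4, Atp2c1, Twf2, Poc1a and Dusp7 fell by 0.18, 0.28, 0.32 and 0.21, Pik3r4 rose by 0.22, and the adjacent collagen gene Col6a5, at 28.8 kb on the same strand, had 29.6 and 30.7 normalized counts (0.04, SE 0.20). Glyctk on its other side had 0.29 (SE 0.20). Arl15 fell by 0.20 at 414.8 kb from BC067074. Leaving out each library in turn, 12 of the 20 called neighbours kept their call, and Cfap74, Gm16023, Sdf4, Noc2l, Poc1a, Gm20628, Pias3 and Rnf115 lost it in at least 1 case (highest adjusted p 0.14, for Poc1a). Without the 5 libraries with high choroid plexus markers, a setting added after the data had been seen, all 20 kept their direction and 5 were called, namely Acap3, Atp2c1, Pik3r4, Acp6 and Ssx2ip.

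**Figure D5:**
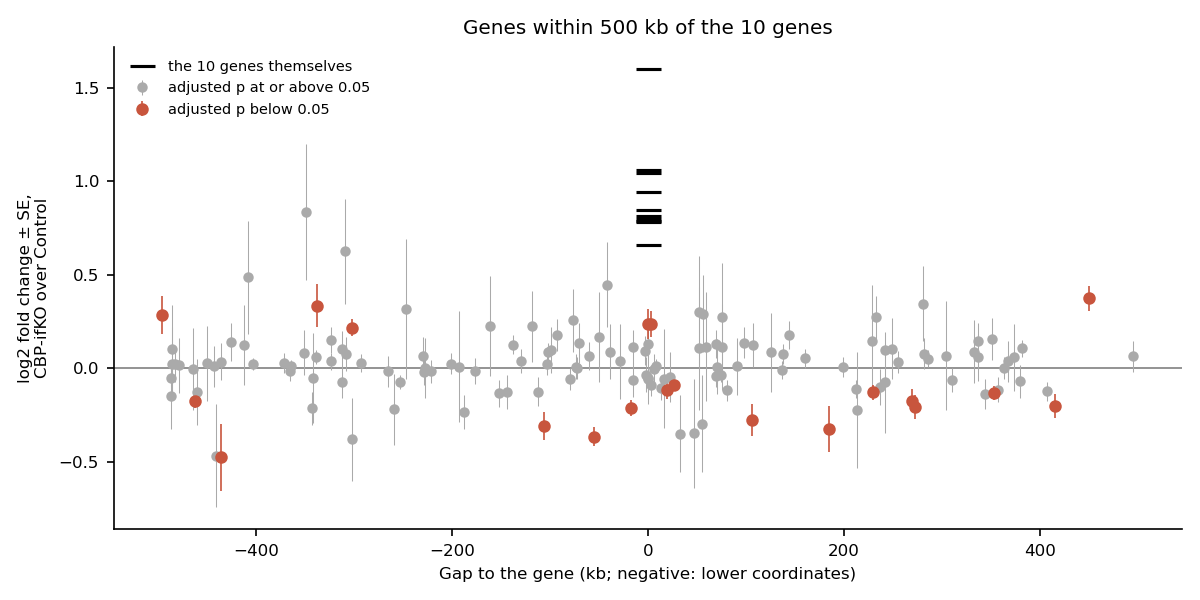
Log2 fold change between genotypes ± SE (y axis) of the 148 tested genes within 500 kb, against their gap in kb to the gene of the 10 they neighbour (x axis, negative at lower coordinates), with called genes in red and the 10 genes as black bars at 0. Called neighbours lie between -0.48 and 0.37, below the black bars. The highest of all tested neighbours, which was not called, stands at 0.84 (SE 0.36), within the range of the black bars.

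Families and pathways to which the 10 genes belong were followed in lists of 106 other genes, of which 98 had an adjusted p. DESeq2 called 10 of them higher (10.2%, against 7.76% of all genes) and 18 lower (18.4%, against 11.5%). The median log2 fold change over the lists was -0.03. In lane 4 alone all 28 called genes kept their direction and 4 were called, and without the 5 libraries with high choroid plexus markers all 28 kept it and 15 were called. The calls of Nudt5, Ldhb, Cask, Ift20, Ift46, Ift80 and Ift88 were lost when at least 1 single library was left out (highest adjusted p 0.14, for Ift80), and the other 21 were kept.

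The list of 5 genes for the FRAS and FREM matrix proteins held Fras1, Frem1, Frem2, Grip1 and Npnt, the last 2 as genes listed beside that family. Npnt, which encodes nephronectin, was the only one called. It rose from 238 to 356 normalized counts (log2 fold change 0.59, SE 0.08, adjusted p 2e-11 by DESeq2). The close relatives of Frem3, named after their values had been seen, were not called, with 801 and 708 for Fras1, 179 and 230.1 for Frem1, and 143 and 149 for Frem2 in controls and CBP-ifKOs. Of 7 other collagen VI chains and receptors DESeq2 called none, with 3 at an unadjusted p under 0.05, and edgeR called Antxr2. Col6a1, a main chain, had 513 and 405 normalized counts (-0.34, SE 0.15), Col6a2 had 109 and 116 (0.11, SE 0.12), and the receptor genes Antxr1 and Antxr2 had log2 fold changes of 0.33 (SE 0.13) and 0.31 (SE 0.12). Of 8 C1q and TNF related genes 4 could be tested, 1 had an unadjusted p under 0.05 and neither DESeq2 nor edgeR called any. C1qtnf4, the highest of them, had 151 and 109 normalized counts (-0.47, SE 0.20).

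Around Adi1, 5 of 12 methionine salvage and polyamine genes fell and 1 rose. Mtap, which starts the salvage from methylthioadenosine, rose by 0.32 on the log2 scale (SE 0.09). Enoph1, the enzyme just upstream of Adi1, fell by 0.24 (SE 0.06), Mat2b by 0.24 (SE 0.05), Sms by 0.19 (SE 0.05), Got1 by 0.14 (SE 0.04), and Odc1, which makes putrescine, by 0.47 (SE 0.11). Of 19 tested Nudix hydrolases, Nudt12 rose from 84.9 to 126 normalized counts (0.58, SE 0.09, adjusted p 5.4e-09 by DESeq2) and Nudt5 by 0.16, and Nudt3 fell by 0.30. The remaining 16 were not called. Of 10 tested lactate and methylglyoxal genes, the L-lactate dehydrogenase genes Ldha and Ldhb fell by 0.24 (SE 0.04) and 0.13 (SE 0.05), against the higher level of Ldhd.

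Of 19 tested guanylate kinase scaffolds and Crumbs polarity genes, 7 fell and 1 rose. Mpp1 rose by 0.23 (SE 0.05). Those that fell were Mpp2 (by 0.29), Dlg2 (by 0.21), Dlg3 (by 0.13), Dlg4, which encodes the synaptic scaffold PSD-95 (by 0.27), Lin7a (by 0.29), Lin7b (by 0.50) and Cask (by 0.09). Several of these genes are active in neurons. Of the neuronal marker lists, the summed CA1 (median 2813 in CBP-ifKOs against 4187) and interneuron markers (6040 against 6501) were lower in CBP-ifKOs without overlap, whereas those of dentate granule cells (2749 against 2746), CA3 pyramidal cells (534 against 586) and excitatory neurons (33076 against 31066) overlapped. Their part in these changes was not tested. Of 13 SNF2 ATPase and transcription termination genes, Ttf1, a termination factor for RNA polymerase I, rose by 0.25 (SE 0.07) and Rad54l2 by 0.18 (SE 0.05). Of 9 intraflagellar transport genes listed for Spata1, Ift46, Ift80 and Ift88 rose by 0.16, 0.13 and 0.16, and Ift20, Ift57 and Ift81 fell by 0.18, 0.20 and 0.22.

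The most similar patterns over the 17 libraries were sought for each gene, where the mean was 20 or more, by Pearson's r of log2(normalized counts + 1). These correlations are a description, since the points are the same 17 libraries that differ in genotype, lane and depth. Esr1 was closest to Adi1 (r = 0.98) and Frem3 (r = 0.95) and was among the top 3 for Spata1 (r = 0.93). Adi1 and Ttf2 were in each other's top 3 (r = 0.95), and Nudt12, a relative of Nudt17, led for Ttf2 (r = 0.95). Nudt17 was closest to Gm6472 (r = 0.94), Spata1 to Fam229b (r = 0.94), C1qtnf12 to Eif2ak2 (r = 0.87), Ldhd to Urb2 (r = 0.86) and Col6a4 to Psmf1 (r = 0.89). Mpp7 was closest to Gm37494 (r = 0.95). BC067074 was closest to Tmem237 (r = 0.95), and Kl, which encodes klotho and is highly expressed in choroid plexus, was among its top 3 (r = 0.93).

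Within groups the 10 genes did not move as a block. After the mean of each group had been removed, the median of the 45 correlations between pairs of the 10 was 0.03, with 23 above and 22 below 0. The highest was that of BC067074 with Mpp7 (r = 0.78), which was -0.66 over the 12 libraries with low choroid plexus markers. The lowest was that of Adi1 with C1qtnf12 (r = -0.81), which was -0.84 after a correction for GC content and -0.80 in the 12 libraries. Adi1 also ran against Frem3 (r = -0.72) and Ldhd (r = -0.62).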

How the data were processed

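The authors deposited raw counts per gene. By the study's methods and processing notes, single-end reads of 50 bases were trimmed (Trim Galore 0.6.4), aligned to GRCm38 with STAR 2.6.1, kept above a mapping quality of 10 and counted on Ensembl 99 exons with Rsubread. The strand setting is not given in the sources used here. Of 18 columns of libraries, 1 with a name like those of Control PTZ45 matched no sample and was not used here.

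The 10 genes and all lists were chosen with earlier results of these data known. Tests were two-sided Wald tests in DESeq2 1.42.0 (R 4.3.3) with Benjamini-Hochberg adjustment over all genes. Pairs of groups were fitted alone, interactions on 4 groups, and genotype on 17 libraries with treatment as a term. Named besides the 10 genes were overlapping genes and nearest protein-coding genes (mean of at least 10), called genes within 500 kb, called family genes or up to 3 of the highest, and the 3 most similar genes. Positions came from GENCODE M21. Alternatives were edgeR 4.0.16, TMM, total counts, a filter of 10 counts in 2 libraries, GC correction (loess, span 0.5), a replicate block, 1 fit of all libraries, lane 4 alone and leaving out each library. Fits were tested on simulated data.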

Additional observations from a re-analysis of the deposited data

Results flagged for a closer look

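Over the 8 control and the 9 CBP-ifKO libraries, each of the 10 genes was searched for a library far from the others, by the gap of the highest or lowest value to its neighbour as a share of the whole range. Chance alone marks about 1 in 20 of such groups, and 2 of the 20 groups were marked. BC067074 had 141 normalized counts in Control PTZ0 replicate 2, against 57.9 in the next control, a gap of 83.3% of the range. The same library had a summed choroid plexus marker level of 24681. Ttf2 had 22.8 normalized counts in Control PTZ45 replicate 2, against 29.5 in the next lowest control, a gap of 54.1% of the range, and 21 reads stood behind that value.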

How the results depend on the processing

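No member was called in any of 109 refits of the 8 treatment comparisons and interactions, the replicate block (0 of 10 in each) included. Whether the replicate numbers mark a shared batch is not stated in the labels. Same-numbered libraries had a median correlation of -0.04 (-0.46 to 0.43), beside 0.00 (-0.45 to 0.66) for other pairs. Ranges this wide cannot decide the question. Without Control Sal replicate 1 (PTZ0 against Sal) or Control PTZ45 replicate 1 (PTZ45 against PTZ0), DESeq2 gave the 10 genes no adjusted p, and without Control PTZ45 replicate 1 (PTZ45 against Sal) 7 had one. Of 240 refits of the genotype fold changes none reversed and 1 moved beyond the replicate spread, C1qtnf12 in lane 4 alone (1.02 against 0.66). These refits reuse the libraries and the contrast that chose the genes, so their direction was largely fixed beforehand. The count of 5 genes without overlap was 5 or 6 under other normalizations and without single libraries or the 5 below, and 9 in lane 4 alone, with fewer libraries. Leaving out the 5 libraries with high choroid plexus markers, chosen after seeing the data, lowered the neighbours called from 20 to 5, with fewer libraries and 127 in place of 148 neighbours tested, and lowered BC067074 from 0.82 to 0.46. Without each library in turn, 14 to 24 neighbours and 24 to 31 family genes were called, and BC067074 ranged from 0.59 to 1.06. With the replicate block 19 neighbours and 24 family genes were called. Counts of 16 to 79 reads per control library limit Frem3, Ttf2 and Col6a4.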
